A study of Mus musculus with 2 samples.

Results

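The proteasome is the protease that removes ubiquitin-tagged proteins from the cytosol and nucleus. Its genes were taken as all protein-coding genes of the deposited table whose symbol begins with Psm, followed by a letter from a to g and a digit. This gave 51 of 55414 genes, 21884 of which are protein-coding. They encode the barrel-shaped 20S core (Psma and Psmb), the 19S cap (Psmc and Psmd), activators (Psme), an inhibitor (Psmf1) and assembly chaperones (Psmg and part of Psmd). Psmc3ip and Psme3ip1 meet the name rule but encode interacting proteins, not subunits, and Psme2b is a copy of Psme2; these 3 were kept and are described apart.

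Poly(A) RNA was profiled in a mouse macrophage-like cell line, spelled RAW246.7 by the submitters, after 24 h of stretching at 20% elongation (stretched) and after 24 h at a strain that the labels call normal without giving a value (control). There was 1 library per group. No measure of variation between cultures exists, so each difference below is between 2 libraries, no p-value was computed, and "higher" and "lower" describe stretched relative to control. The labels name synovial membrane as the tissue as well as the cell line. Of 8 synovial fibroblast markers, Col1a2, Col3a1, Pdgfra, Thy1 and Dcn had 0 counts in both libraries and the list summed to 14 counts in stretched and 17 in control. Of 10 macrophage markers, 9 had at least 20 counts over both libraries, with a summed level of 3939 FPKM in stretched and 2763 FPKM in control. FPKM, the authors' level measure, divides fragments by transcript length and library depth. The summed counts of the other marker lists were 32 in stretched and 52 in control for 6 dendritic cell genes, 92 in stretched and 137 in control for 5 T cell genes (mostly Lck), 7 in each for 4 B cell genes, and 20 in stretched and 22 in control for 4 endothelial genes. Most of the difference in the macrophage sum came from Lyz2, the macrophage lysozyme, with 2289 FPKM in stretched and 1320 FPKM in control. Without Lyz2 the sum was 1651 FPKM in stretched and 1443 FPKM in control. Of the 9 macrophage markers past the count minimum, 6 had log2 differences above 0 and 3 below, among them Fcgr1 (-0.41) and Ptprc (-0.26). The part of these marker differences in the values below was not tested.

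In the 20S core, proteins are cut by 3 catalytic beta subunits, encoded by Psmb6 (beta1), Psmb7 (beta2) and Psmb5 (beta5). In cells exposed to interferon these can be replaced in new particles by the immunosubunits encoded by Psmb9, Psmb10 and Psmb8, which changes the peptides offered to T cells on MHC class I. The ring-shaped activator PA28, made of the Psme1 and Psme2 products, is also interferon-inducible. When proteasomes are inhibited, the transcription factor NRF1 (gene Nfe2l1) raises many of the subunit genes together.

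The promoters of 2 pairs whose products replace each other, Psmb8 with Psmb5 and Psmb9 with Psmb6, are shown because the immunosubunit results turn on these pairs. Each is the 250 bases before the annotated start on the gene's own strand, from RefSeq on build GRCm38.p6. The windows are chr17:34197945-34198194 (plus strand) for Psmb8, chr14:54617996-54618245 (minus strand) for Psmb5, chr17:34187331-34187580 (minus strand) for Psmb9 and chr11:70525107-70525356 (plus strand) for Psmb6. Capitals mark a match to TTCNNNGAA, the gamma-activated site of genes induced by interferon gamma, in Psmb8, and to TGACNNNGC, the antioxidant response element core, in Psmb5 and Psmb6.
Psmb8: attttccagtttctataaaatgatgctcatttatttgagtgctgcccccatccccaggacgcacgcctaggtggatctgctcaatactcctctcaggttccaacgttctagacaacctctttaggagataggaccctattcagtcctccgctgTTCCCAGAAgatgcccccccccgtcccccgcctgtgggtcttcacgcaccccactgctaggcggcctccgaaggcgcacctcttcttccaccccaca
Psmb5: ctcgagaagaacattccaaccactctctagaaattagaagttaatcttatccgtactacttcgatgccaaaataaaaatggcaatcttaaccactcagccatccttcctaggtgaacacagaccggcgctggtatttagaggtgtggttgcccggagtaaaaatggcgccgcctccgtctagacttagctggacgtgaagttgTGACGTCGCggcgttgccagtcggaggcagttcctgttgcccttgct
Psmb9: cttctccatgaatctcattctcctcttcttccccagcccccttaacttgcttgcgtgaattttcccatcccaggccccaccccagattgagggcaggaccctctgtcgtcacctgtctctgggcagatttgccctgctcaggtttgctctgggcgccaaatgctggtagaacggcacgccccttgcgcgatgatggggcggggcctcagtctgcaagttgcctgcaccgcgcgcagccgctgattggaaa
Psmb6: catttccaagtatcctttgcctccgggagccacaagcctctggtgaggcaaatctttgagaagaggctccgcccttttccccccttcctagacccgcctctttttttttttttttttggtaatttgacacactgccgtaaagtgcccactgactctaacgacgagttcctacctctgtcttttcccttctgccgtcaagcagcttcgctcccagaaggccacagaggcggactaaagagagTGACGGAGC
These motifs and the core of the interferon-stimulated response element (GAAA, any 2 bases, GAAA) were searched on both strands in the 43 members with a window. TTCNNNGAA was in 2 of 43 (Psmb8 and Psmg1, 4.65%) and in 8.13% of the windows of all 27025 genes. TGACNNNGC was in 5 of 43 (11.6%; Psmb5, Psmb6, Psmc6, Psmd12 and Psmd9) and in 11.5% of all. The interferon-stimulated core was in 3 of 43 (6.98%; Psmb3, Psmd4 and Psmd9) and in 3.46% of all. A match is a run of letters, not a measured binding site, and the Psmb9 window without a match says only that these letters are not in it.

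No proteasome gene differed by as much as 1.5-fold between the libraries. Of the 51, 50 had at least 20 counts over both libraries; the exception, Psmb11, the beta5 form of the thymus, had 0 counts in both. Differences are given as log2 ratios of TMM-scaled counts, stretched over control, after adding 0.5 counts. The 50 spanned log2 differences of -0.31 (Psmc3) to 0.42 (Psmd1), with a median of 0.06 and quartiles of -0.05 and 0.17. Over all 12772 genes past the same count minimum the median was -0.0015 and the quartiles were -0.19 and 0.21, and 73.4% of them lay within the members' range. That spread includes many genes of low count: the 3922 genes within the members' middle range of counts (1205 to 4132 over both libraries) had quartiles of -0.14 and 0.14, and the members' upper quartile lay above theirs. None of the 50 was at least 2-fold higher or lower with a counting interval that excluded equality, against a background of 3.12% higher and 1.96% lower over all genes. None passed 1.5-fold either, where the background was 6.2% higher and 3.65% lower. These backgrounds also include genes of low count. Over genes with at least 100 counts they were 1.73% higher and 0.626% lower at 2-fold. At 1.5-fold they were 4.82% higher and 2.44% lower. A difference was above 0 for 33 members and below 0 for 17, or 66% above 0 against 49.9% of all genes. With DESeq2 size factors, which shift all genes alike and put their median at -0.04, 27 of the 50 were above 0, against 44.0% of all genes. The members' median lay 0.06 above that of all genes with either scaling. That distance was 0.03 with protein-coding transcripts alone, 0.04 by FPKM with 1 or 0.1 added, and 0.004 without the count minimum.

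**Figure D1:**
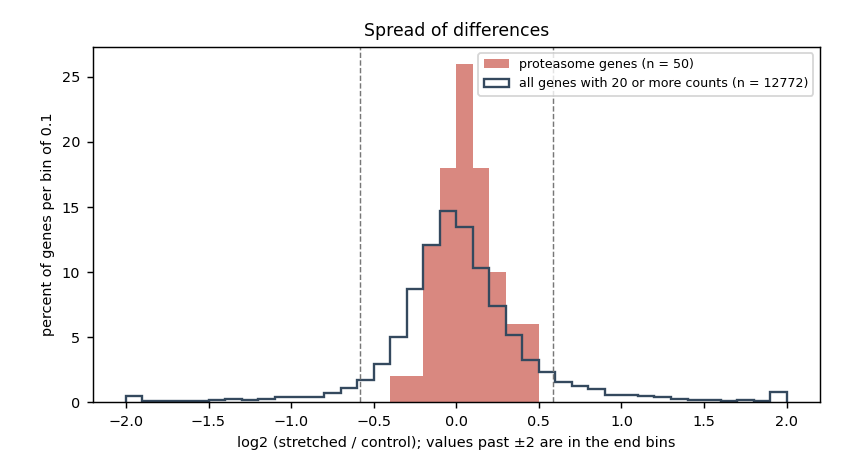
Percent of genes per bin of 0.1 of the log2 ratio of stretched over control (horizontal axis, log2 units), for the 50 proteasome genes past the count minimum (filled) and all 12772 genes past it (line). Dashed lines mark 1.5-fold; all 50 proteasome genes lie between them, from -0.31 to 0.42.

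At a 1.2-fold size, a rule added after the values were seen, 8 members were higher (Psmd1, Psme1, Psmd2, Psmb2, Psmb8, Psmb5, Psma8 and Psmd3). That is 16% of 50, against 15.1% of all genes. Psmc3 alone was lower, 2% of 50 against 12% of all genes. With DESeq2 size factors the all-gene shares at 1.2-fold were 12.5% higher and 15.5% lower, and 5 members were higher. The counting interval excluded 0 for 23 of the 50, 18 above and 5 below, and did so for 44.8% of all genes. All genes include many of lower count with wider intervals, so these shares come from sets of unlike depth. The members' typical interval reached 0.10 to either side on the log2 scale. These intervals cover counting error only. Together the members took 73610 counts in stretched and 76413 in control, which is 0.550% (Wilson 95% interval 0.546 to 0.554) of the stretched library's 13391645 estimated counts and 0.517% (0.514 to 0.521) of the control library's 14769100.

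Most subunit genes of the core and cap were abundant in both libraries. Over the 50 members FPKM ranged from 3.13 (Psme2b) to 184 (Psmb4) in stretched, with a median of 60.1, and from 2.29 (Psme2b) to 198 (Psmb4) in control, with a median of 54.5. The 7 alpha ring genes had a median of 130 FPKM in stretched and 131 FPKM in control. The 6 ATPase genes had medians of 68.7 FPKM in stretched and 66.7 FPKM in control, and ranged from 61.9 to 79.9 FPKM in stretched and from 58.5 to 80.5 FPKM in control. The 3 immunosubunits lay between 6.85 and 26.7 FPKM in stretched and between 6.08 and 20.1 FPKM in control, all below the lowest ATPase gene.

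**Figure D2:**
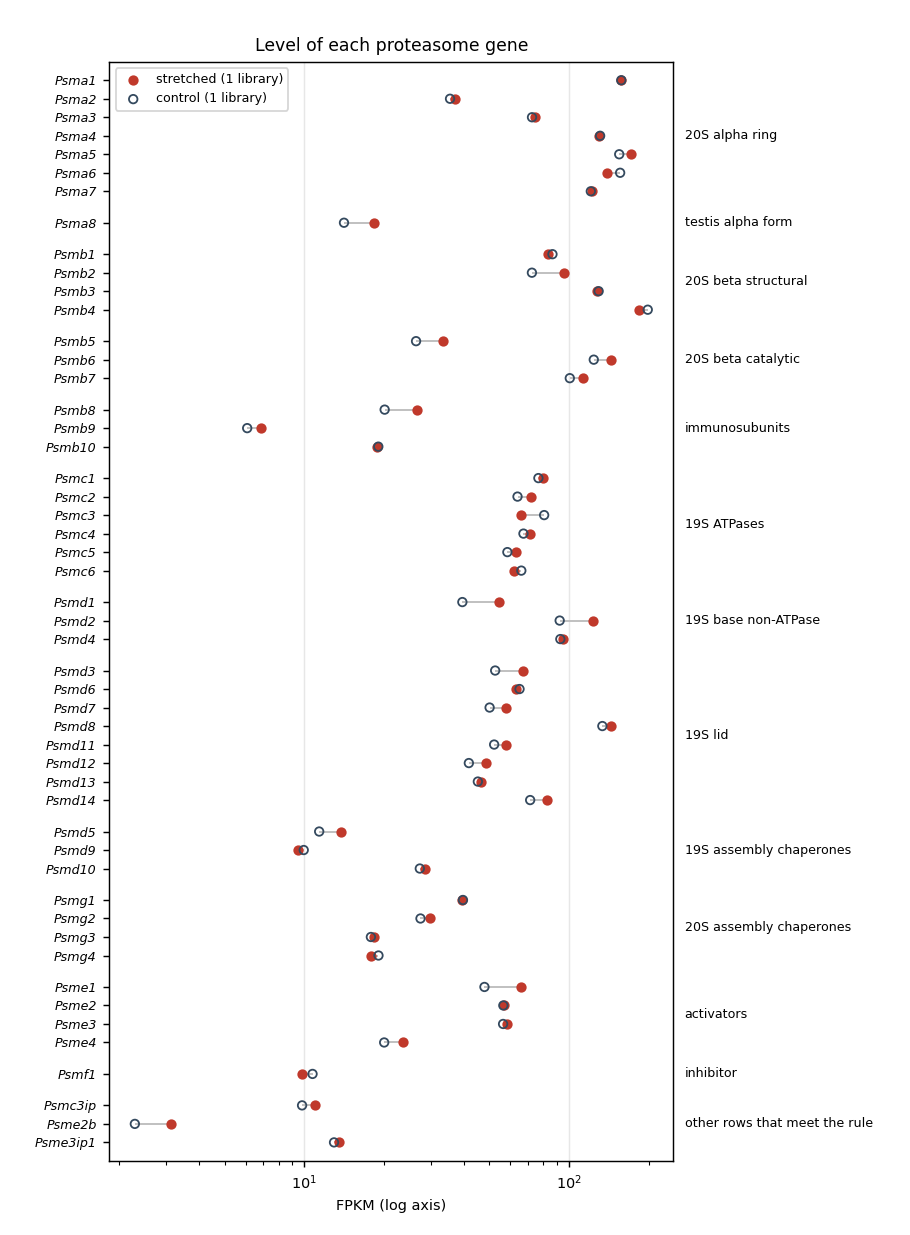
FPKM (log axis) of the 50 proteasome genes with counts, grouped by role, in the stretched library (filled) and the control library (open), 1 library each. The pairs of points lie close together, with levels from 3.13 to 184 in stretched and from 2.29 to 198 in control.

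In GENCODE transcripts of an earlier build, 28 of the 51 shared no 50-base word with another gene on the same strand and 9 shared at least 20% of them. Among the partners of those 9 listed in the table, only Gm3375 (with Psmb5) and Psme2 and Psme2b (with each other) had more than 6 counts in a library.

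The alpha ring, which gates entry to the core, was close to level between the libraries. Its 7 genes, Psma1 to Psma7, had a median log2 difference of 0.02 and ranged from -0.21 to 0.10. Psma6 was the lowest, with 2097 counts (139 FPKM) in stretched and 2649 counts (156 FPKM) in control, a log2 difference of -0.21 (95% counting interval -0.29 to -0.13). Psma5 had the highest value, 3077 counts in stretched and 3133 in control (0.10, 0.03 to 0.17). The intervals of Psma1, Psma2, Psma3, Psma4 and Psma7 included 0. Psma2 shares its strand and position with AW209491, which had 222 counts in stretched and 237 in control.

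The 4 beta subunits without catalytic activity differed in direction. Psmb2 was higher, with 1196 counts (95.8 FPKM) in stretched and 1016 counts (72.4 FPKM) in control, a log2 difference of 0.36 (0.24 to 0.48). Psmb1 and Psmb4 were lower. Psmb4 had 3135 counts in stretched and 3805 in control (-0.15, -0.22 to -0.09), and Psmb1 had 2133 in stretched and 2536 in control (-0.12, -0.21 to -0.04). Psmb3 had 1453 counts in stretched and 1654 in control, with an interval that included 0 (-0.06, -0.16 to 0.04). Since each core particle holds these subunits in equal number, the transcripts of one particle here lay on either side of 0.

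All 3 standard catalytic subunits were slightly higher in stretched, by amounts below 1.5-fold. Psmb6 (beta1, caspase-like cutting) had 1672 counts (144 FPKM) in stretched and 1619 counts (124 FPKM) in control, a log2 difference of 0.17 (0.07 to 0.27). Psmb7 (beta2, trypsin-like) had 1910 counts (113 FPKM) in stretched and 1919 counts (101 FPKM) in control (0.12, 0.03 to 0.21). Psmb5 (beta5, chymotrypsin-like) had 434 counts (33.5 FPKM) in stretched and 385 counts (26.4 FPKM) in control (0.30, 0.10 to 0.50). Psmb5 (chr14:54851576-54855479, minus strand, GRCm39) may not be separable from a copy of itself in these tables. Of its 50-base words, 49.4% are also in Gm3375, a processed pseudogene at chr7:3230842-3231636 (GRCm39), which was listed with 723 counts (62.6 FPKM) in stretched and 745 counts (57.3 FPKM) in control. Psmb5 and Gm3375 summed had 1157 counts in stretched and 1130 in control, a log2 difference of 0.16 (0.04 to 0.28), nearer to those of Psmb6 and Psmb7. The sum came to 96.0 FPKM in stretched and 83.7 FPKM in control. Summed without the pseudogene, the 3 catalytic genes gave a log2 difference of 0.16 (0.10 to 0.22), and the 14 standard core genes together gave -0.003 (-0.027 to 0.021).

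Of the immunosubunits, Psmb8 was higher and the other two had intervals that included 0. Psmb8 (beta5i, also called LMP7) had 613 counts (26.7 FPKM) in stretched and 522 counts (20.1 FPKM) in control, a log2 difference of 0.36 (0.19 to 0.53). Psmb9 (beta1i, LMP2) had 145 counts (6.85 FPKM) in stretched and 147 counts (6.08 FPKM) in control (0.11, -0.24 to 0.45). Psmb10 (beta2i, MECL-1) had 353 counts (18.9 FPKM) in stretched and 402 counts (19.03 FPKM) in control (-0.06, -0.27 to 0.15). Psmb9 was the least abundant subunit gene of the core with counts in either library, and its interval was wide enough to hold both 0 and the value of Psmb8. Psmb8 (chr17:34416695-34420428, plus strand, GRCm39) and Psmb9 (chr17:34400961-34406738, minus strand, GRCm39) are neighbours in the MHC region, and Psmb9 overlaps Tap1 on the opposite strand. The library kit marks strand, but no source used here states whether the counting used strand, so reads of Psmb9 and Tap1 may not be told apart where they overlap. This limit also holds for other members that overlap a gene on the opposite strand. Among them are Psmc3 with Slc39a13 (418 counts in stretched, 424 in control) and Psmb7 with Nek6 (1199 in stretched, 1211 in control). Psme1 overlaps Emc9 in this way (66 in stretched, 58 in control). Psmb8, Psmb9 and Psmb10 summed gave 1111 counts in stretched and 1071 in control (0.18, 0.06 to 0.30), with 613 of these counts in stretched and 522 in control from Psmb8.

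The balance within each interchangeable pair was close to level between the libraries. Psmb8 made up 58.5% (Wilson 95% interval 55.5 to 61.5) of the counts of Psmb8 and Psmb5 in stretched and 57.6% (54.3 to 60.7) in control. With Gm3375 added to Psmb5 the share was 34.6% (32.5 to 36.9) in stretched and 31.6% (29.4 to 33.9) in control. How reads were divided between Psmb5 and Gm3375 was not tested. Psmb9 made up 7.98% (6.82 to 9.32) of its pair with Psmb6 in stretched and 8.32% (7.12 to 9.70) in control. Psmb10 made up 15.6% (14.2 to 17.2) of its pair with Psmb7 in stretched and 17.3% (15.8 to 18.9) in control. The intervals of the 2 libraries overlapped in all 3 pairs. Per length, Psmb6 was 21.0 times as abundant as Psmb9 in stretched and 20.4 times in control, and Psmb7 was 6.003 times as abundant as Psmb10 in stretched and 5.29 times in control. Psmb5 alone was 1.25 times as abundant as Psmb8 in stretched and 1.31 times in control.

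**Figure D3:**
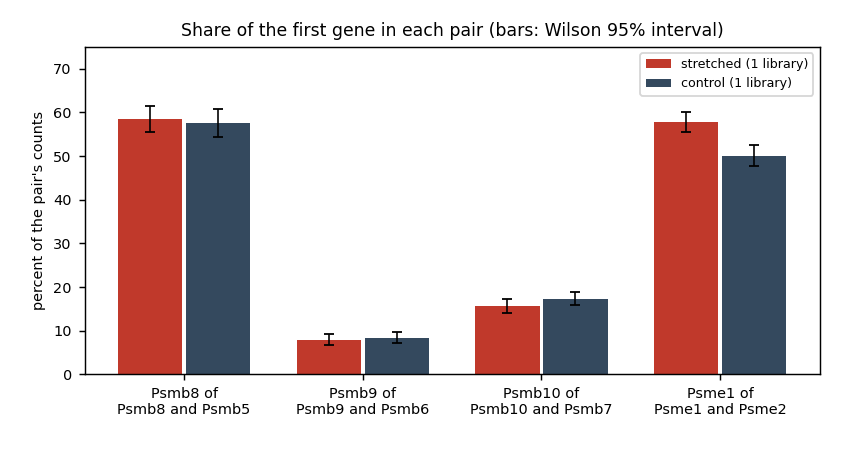
Share of the first-named gene in the counts of each pair (vertical axis, percent), stretched library left and control library right in each pair, with Wilson 95% intervals for counting error. The 3 immunosubunit pairs have overlapping intervals; Psme1 took 57.8% of its pair in stretched and 50.1% in control.

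Among the activators, which open the core in place of the 19S cap, the partners of PA28 differed. Psme1 (PA28 alpha; chr14:55815580-55818986, GRCm39) had 1042 counts (65.8 FPKM) in stretched and 859 counts (47.9 FPKM) in control, a log2 difference of 0.40 (0.27 to 0.54). Psme2 (PA28 beta; chr14:55824898-55828570, GRCm39) had 760 counts (56.7 FPKM) in stretched and 856 counts (56.5 FPKM) in control (-0.05, -0.19 to 0.10). Psme1 made up 57.8% (55.5 to 60.1) of the counts of the pair in stretched and 50.1% (47.7 to 52.5) in control, a comparison chosen after the values were seen. Of Psme2's 50-base words, 59.3% are also in its copy Psme2b, which had 39 counts in stretched and 32 in control. With both copies summed, 799 counts in stretched and 888 in control, the log2 difference was -0.03 (-0.17 to 0.11). Psme4 (PA200) had 2181 counts (23.5 FPKM) in stretched and 2022 counts (20.0 FPKM) in control (0.23, 0.15 to 0.32). Psme3 (PA28 gamma, the nuclear form) had 2236 counts (58.3 FPKM) in stretched and 2437 counts (56.4 FPKM) in control (0.00, -0.08 to 0.08). Psmf1, the inhibitor PI31, had 540 counts in stretched and 658 in control (-0.16, -0.33 to 0.01).

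The highest and the lowest member were both in the base of the 19S cap, which recognises and unfolds tagged proteins. Psmd1 (Rpn2; chr1:85992109-86066873, GRCm39), a scaffold of the base, had 2451 counts (54.3 FPKM) in stretched and 1993 counts (39.5 FPKM) in control, a log2 difference of 0.42 (0.34 to 0.51). Psmd2 (Rpn1), the other large scaffold and a docking site for ubiquitin shuttles, had 5273 counts (124 FPKM) in stretched and 4407 counts (92.2 FPKM) in control (0.38, 0.33 to 0.44). The ubiquitin receptor Psmd4 (Rpn10) had 1926 counts in stretched and 2135 in control, and its interval included 0 (-0.02, -0.11 to 0.07). Beside these, the ring of 6 ATPases had a median of 0.04 and held the lowest member of all. Psmc3 (Rpt5; chr2:90884354-90896714, GRCm39) had 1567 counts (66.1 FPKM) in stretched and 2117 counts (80.5 FPKM) in control (-0.31, -0.40 to -0.21). Psmc6 was also below 0, with 1903 counts in stretched and 2252 in control (-0.12, -0.21 to -0.03). Psmc2 was above 0, with 1866 counts in stretched and 1865 in control (0.13, 0.03 to 0.22), and the intervals of Psmc1, Psmc4 and Psmc5 included 0. The subunit genes of the base thus had differences from -0.31 to 0.42.

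The lid removes ubiquitin chains before a protein enters the core. Its 8 genes that meet the name rule had a median log2 difference of 0.15 and ranged from -0.04 to 0.29. Intervals were above 0 for 5 of the 8 and below 0 for none. Sem1, a lid gene outside the name rule, had 330 counts in stretched and 412 in control (-0.19, -0.41 to 0.02). Psmd3 (Rpn3) was the highest, with 2094 counts (66.9 FPKM) in stretched and 1863 counts (52.6 FPKM) in control (0.29, 0.20 to 0.39). Psmd14 (Rpn11), the deubiquitinase of the lid, had 1825 counts (82.3 FPKM) in stretched and 1766 counts (71.3 FPKM) in control (0.17, 0.08 to 0.27). The 17 genes of the 19S cap that meet the name rule summed to 34141 counts in stretched and 34204 in control. That was a log2 difference of 0.12 (0.10 to 0.14). The 14 standard core genes lay at -0.003 on the same scale. By median the cap genes were at 0.07 and the core genes at 0.02. Within the cap, Psmd1, Psmd2 and Psmd4 summed to 0.30 (0.26 to 0.34) and the lid to 0.12 (0.09 to 0.16). The ATPases summed to -0.036 (-0.075 to 0.004). Whether the cap and the core differ beyond the variation between cultures cannot be tested with 1 library each.

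**Figure D4:**
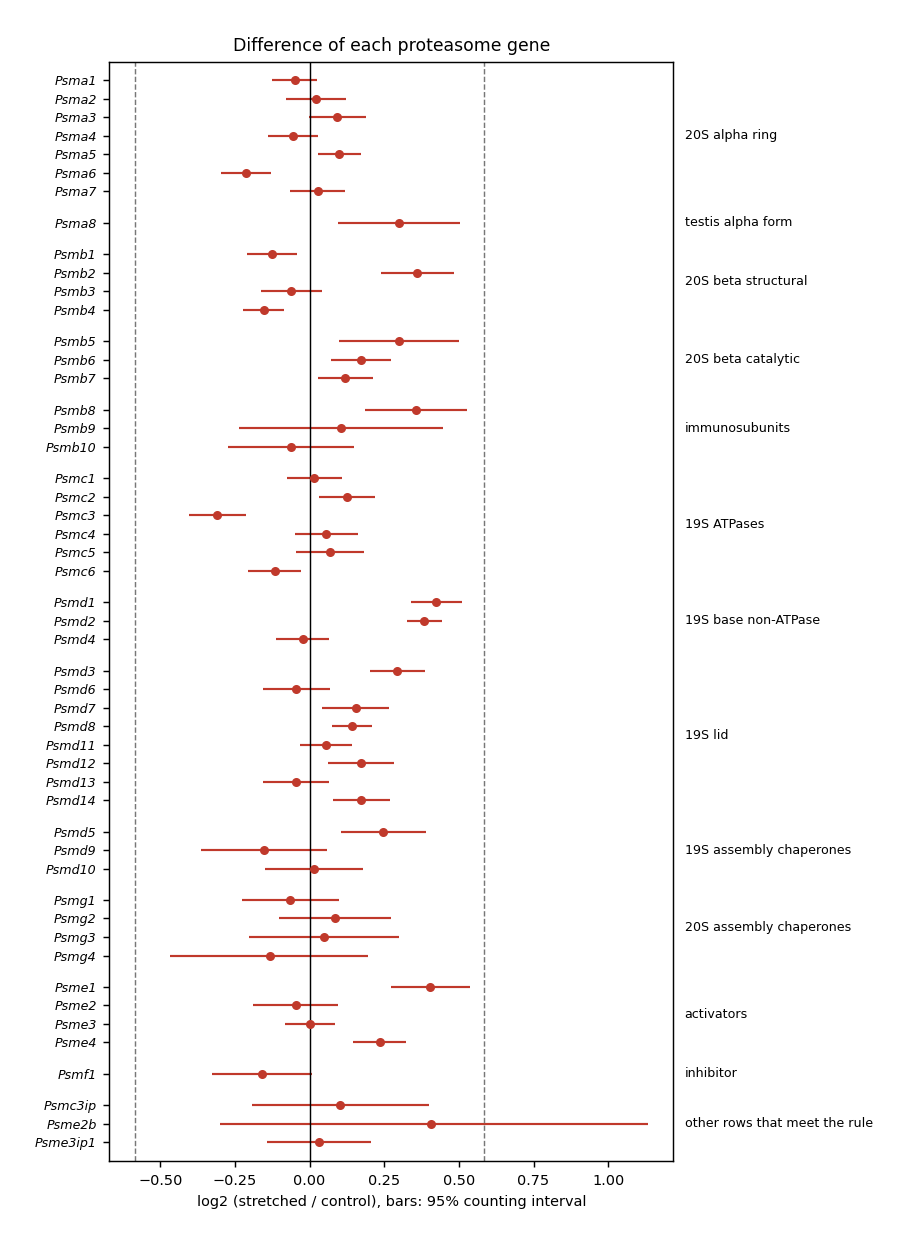
Log2 ratio of stretched over control for each of the 50 proteasome genes with counts, grouped by role, with exact 95% intervals for counting error only. Dashed lines mark 1.5-fold; Psmd1, Psme1 and Psmd2 lie near 0.4 and Psmc3 at -0.31.

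The assembly chaperones showed no shared direction. Of the 3 that build the cap, Psmd5 had 863 counts (13.8 FPKM) in stretched and 793 counts (11.4 FPKM) in control (0.25, 0.11 to 0.39). Psmd9 had 343 counts in stretched and 416 in control (-0.15, -0.36 to 0.06), and Psmd10 (gankyrin) had 590 in stretched and 637 in control (0.02, -0.15 to 0.18). The 4 genes that pair and assemble the core, Psmg1 to Psmg4, had a median of -0.01, and all 4 intervals included 0. Psmg4, the lowest of them, had 142 counts in stretched and 170 in control (-0.13, -0.47 to 0.20). The rows that are not subunits had intervals that included 0 as well. Psme2b (0.41, -0.30 to 1.13) rests on few counts and shares its strand and position with 9930111J21Rik1, which had 223 counts in stretched and 345 in control. Psmc3ip had 190 counts in stretched and 193 in control, and Psme3ip1 had 525 in stretched and 560 in control.

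Psma8, the alpha4 form typical of testis, was higher as a gene but not in its protein-coding transcripts. The gene had 425 counts (18.3 FPKM) in stretched and 377 counts (14.1 FPKM) in control (0.30, 0.10 to 0.50). Its 2 protein-coding transcript models had 265 counts in stretched and 325 in control, a log2 difference of -0.17 (-0.41 to 0.07). Its 3 models annotated as targets of nonsense-mediated decay, the pathway that removes transcripts with early stop codons, had 152 counts in stretched and 50 in control (1.72, 1.26 to 2.22). The coding share was 62.4% (57.7 to 66.8) in stretched and 86.2% (82.4 to 89.3) in control. It was one of 2 members whose coding share moved by over 5 points, and the other, Psmc3ip, had 73.7% in stretched and 67.9% in control. Over the 50 members most counts were on coding models, with a median coding share of 98.3% in stretched and 97.8% in control and over 90% in both libraries for 42 of 50 members.

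The coding share of Psmb8 was 74.4% (70.8 to 77.7) in stretched and 75.1% (71.2 to 78.6) in control. Its remaining counts were on models with a retained intron, 157 in stretched and 130 in control. Among those, one model of 1234 bases had 81 counts in stretched and 7 in control, and one of 1484 bases had 0 in stretched and 43 in control, so the division between overlapping models of the gene differed more than the gene itself. Psma3 had the lowest coding share of the family, 60.9% in stretched and 57.2% in control. Its decay models had 271 counts in stretched and 411 in control (-0.47, -0.70 to -0.25), the opposite sign to those of Psma8. Coding models of other members also moved apart. In Psmb1 a model of 1758 bases had 799 counts in stretched and 1781 in control. Another Psmb1 model, of 1435 bases, had 435 in stretched and 84 in control. In Psmd8 a model of 1391 bases had 121 in stretched and 665 in control. As genes, Psmb1 was at -0.12 and Psmd8 at 0.14. All these divisions are estimates from coverage, and how well they separate the models was not tested.

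**Figure D5:**
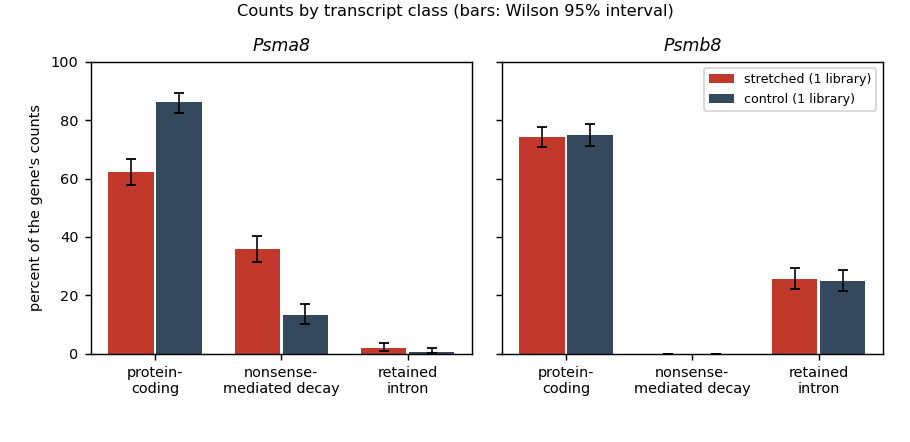
Percent of each gene's counts on protein-coding, nonsense-mediated decay and retained-intron models for Psma8 and Psmb8, stretched library left and control library right, with Wilson 95% intervals for counting error. Psma8 had 62.4% coding counts in stretched and 86.2% in control; Psmb8 had 74.4% in stretched and 75.1% in control.

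A few genes of interferon signalling, which controls the immunosubunit genes, had larger differences than any proteasome gene. Of all genes past the count minimum, 73.4% lay within the members' range of -0.31 to 0.42. Of 15 genes of interferon control, 14 were past the count minimum (Ciita had 0 counts in both libraries). Their median log2 difference was 0.16, with 9 above 0 and 5 below. Stat2 had 778 counts in stretched and 380 in control (1.16, 0.98 to 1.34) and Irf9 had 851 in stretched and 532 in control (0.80, 0.65 to 0.96). Both encode transcription factors that act downstream of type I interferon. Irf1, an activator of Psmb9 and Psmb8, had 244 counts in stretched and 181 in control (0.56, 0.27 to 0.84). Nlrc5 had 739 counts in stretched and 540 in control (0.58, 0.42 to 0.74). Smaller differences above 0 were those of Ifnar1 (0.23, 0.10 to 0.36), Ifngr2 (0.17, 0.04 to 0.31) and Tyk2 (0.16, 0.06 to 0.25). The receptor chain gene Ifnar2 was lower, with 794 counts in stretched and 1372 in control (-0.66, -0.79 to -0.54). Also below 0 were Ifngr1 (-0.31, -0.48 to -0.16), a receptor chain for interferon gamma, and Jak2 (-0.25, -0.41 to -0.08). The same held for Irf2 (-0.28, -0.46 to -0.11) and Irf8 (-0.24, -0.34 to -0.13).

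Of 16 genes of the MHC class I peptide route, the destination of immunoproteasome products, 2 were at least 1.5-fold higher (6.2% of all genes) and none was lower (3.65% of all genes). The median was 0.18, with 12 genes above 0 and 4 below. H2-T23, a nonclassical class I gene, had 1077 counts in stretched and 359 in control (1.71, 1.54 to 1.89), and the chaperone gene Calr had 12713 in stretched and 7943 in control (0.80, 0.76 to 0.84). Tap1, the peptide transporter gene next to Psmb9, had 537 counts in stretched and 432 in control (0.44, 0.25 to 0.63). B2m, the light chain of class I, had 9786 in stretched and 10739 in control (-0.01, -0.05 to 0.03). The lowest values were those of Tapbpl, a peptide editor, with 89 counts in stretched and 132 in control (-0.44, -0.85 to -0.04), and of Erap1, a trimming peptidase, with 1479 in stretched and 1967 in control (-0.29, -0.38 to -0.19). H2-T23 belongs to a family of closely related genes, and its counts are uncertain for that reason.

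Genes outside the name rule that build or feed the proteasome mostly differed by less than 1.5-fold. Of 14 assembly and associated factors, 13 were found (Paaf1 was not analysed here). Their median was -0.08, with 3 above 0 and 10 below, and none passed 1.5-fold by counts. The lowest were Ublcp1 (-0.33, -0.54 to -0.12) and Zfand5 (-0.31, -0.42 to -0.20). By FPKM with 1 added, Zfand5 was at -0.64, which is past 1.5-fold. The core maturation factor Pomp had 1080 counts in stretched and 1185 in control (-0.01, -0.13 to 0.11). Adrm1 and Sem1, also in the list of 14, encode subunits of the cap. Their log2 differences were -0.02 (-0.13 to 0.09) for Adrm1 and -0.19 (-0.41 to 0.02) for Sem1. In the NRF1 list of 12, the median was 0.02, with 8 above 0 and 4 below. In that list 1 gene was at least 1.5-fold higher (6.2% of all genes) and none was lower (3.65% of all genes). It was the ubiquitin ligase gene Syvn1, with 1102 counts in stretched and 760 in control (0.66, 0.53 to 0.80). Nfe2l1 itself had 4089 counts in stretched and 4885 in control (-0.13, -0.19 to -0.07). The 14 shuttle and extraction factors had a median of 0.16, with 10 above 0 and 4 below, and none passed 1.5-fold. At 1.2-fold 3 were higher (15.1% of all genes) and none was lower (12% of all genes). These were Ubqln2 (0.39, 0.24 to 0.53), Ubqln4 (0.30, 0.20 to 0.39) and Sqstm1 (0.27, 0.24 to 0.31). The lowest was Faf1 (-0.12, -0.22 to -0.01).

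The 14 ubiquitin and activating genes had a median of -0.005. Of the 14, 2 were at least 1.5-fold higher (6.2% of all genes). Both belong to the conjugation of ISG15, the ubiquitin-like protein of the interferon response. The activating enzyme gene Uba7 had 964 counts in stretched and 578 in control (0.86, 0.71 to 1.01), and the conjugating enzyme gene Ube2l6 had 607 in stretched and 435 in control (0.61, 0.43 to 0.79). Ubb, a polyubiquitin gene, had 4610 counts in stretched and 5196 in control (-0.05, -0.10 to 0.01).

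In the authors' deposited table of differences, 50 members were listed and none was marked as regulated. Its log2 fold changes for them ran from -0.31 to 0.42. The sources used here do not state how its p-values were made with 1 library per group. Those p-values cannot measure variation between cultures. The lowest unadjusted p-value in the authors' deposited table was 0.0430, for Psmd1, the single one under 0.05, and the lowest adjusted p-value was 0.586.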

How the data were processed

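Per the submitters' processing notes, StringTie and build GRCm39 were used. The sources used here state no aligner, tool version or strand setting of the counting. The authors deposited estimated counts and FPKM for genes and transcripts, and a table of log2 fold changes with p-values, per the file headers. The deposited estimated counts equal FPKM times length, scaled per library and rounded up, for 99.9% of transcripts with counts in stretched and 99.8% in control, so low counts are raised. A deposited mapping summary and 4 further tables were not used here.

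Gene counts, which are whole numbers after that rounding, were scaled by TMM (edgeR 4.0.16, R 4.3.3; 1.005 for stretched, 0.995 for control). The log2 difference adds 0.5 counts and has an exact conditional binomial 95% interval (scipy 1.17.1). A gene was counted as higher or lower with at least 20 counts over both libraries, past the stated fold, and an interval excluding 1. Shares have Wilson 95% intervals. All intervals describe counting error alone: 1 library per group leaves out variation between cultures. PCR duplicates, which cannot be told apart without molecular identifiers, could make them too narrow. FPKM values are as the authors made them, without TMM. Alternatives were other scalings (library totals, DESeq2 1.42.0 size factors), priors, filters, FPKM with 1 or 0.1 added, coding transcripts alone, counts without rounding up and summed overlapping models. The interval and the fold rule were tested on simulated counts with counting error only, equal library sizes and planted differences larger than any member's. That simulation did not test the scaling, the rounding up or differences as small as those of the members.

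Shared 50-base words were sought in GENCODE transcripts of an earlier build, same strand. Promoters came from RefSeq (43 of 51 members). Named genes are the interchangeable pairs, Psme1 to Psme4, the 6 highest and 6 lowest members, and list genes past 1.5-fold with the list's central regulators; other genes named were chosen after their values were seen. In 2 of the lists a gene, and the counts past 1.5-fold that include it, are not reported here. The members and lists were chosen with earlier results of these data known.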

Additional observations from a re-analysis of the deposited data

How the results depend on the processing

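No paired analysis was possible because each group had 1 library, and no library could be left out. No member passed 2-fold or 1.5-fold under any scaling, filter, FPKM scale, summed overlapping models or transcript set that was run, and the median over all members ranged from 0.01 to 0.07. The direction of Psma8 turned, from a log2 difference of 0.30 to -0.17, when protein-coding transcripts alone were counted. The value of Psme2b was -0.35 with its overlapping models summed. The median of the 3 rows that are not subunits was 0.22 with protein-coding transcripts alone. At 1.2-fold, 5 members were higher with DESeq2 size factors, and 2 were lower with overlapping models summed; the all-gene shares with DESeq2 size factors were 12.5% higher and 15.5% lower, against 15.1% and 12% with TMM. The share of Psmb8 in its pair was 51.2% in stretched and 50.5% in control with protein-coding transcripts alone, 44.4% in stretched and 43.2% in control by FPKM, and 34.6% in stretched and 31.6% in control with Gm3375 added to Psmb5. The share of Psmb9 was 6.88% in stretched and 7.11% in control with protein-coding transcripts alone, and 4.54% in stretched and 4.67% in control by FPKM. By FPKM the share of Psme1 was 53.7% in stretched and 45.9% in control. The sums with Gm3375 and Psme2b, the 1.2-fold size and the Psme1 share were chosen after seeing the data. FPKM divides by length and so shifts every share. The cause of the other differences was not tested. Depth limits Psmb9, Psmg4 and Psme2b most.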
